A study of Mus musculus with 8 samples.

Results

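The genes of bone morphogenetic protein (BMP), activin and transforming growth factor β (TGF-β) signalling were described in the distal colon of mice with and without chemically induced colitis. They were chosen by symbol, not by a cut on their values, though with earlier results of these data known. The symbols were those of the BMP, GDF, TGF-β, activin and inhibin ligands, their receptors, the secreted antagonists, the Smads and the Id genes. This gave 65 of the 55418 symbols in the count table. All 8 mice were C57BL/6 and 8 to 10 weeks old, in 4 groups of 2: wild type (WT) untreated, WT after dextran sulfate sodium (DSS), NAIL-ΔNFκB untreated and NAIL-ΔNFκB after DSS. DSS is a sulfated polymer that injures the lining of the colon. Treated mice drank it at 3% for 4 days and plain water for the next 4 days. NAIL-ΔNFκB (below, ΔNFκB) is the labels' name for mice in which the gene of the long noncoding RNA NAIL was modified. The labels do not say which bases were changed, in which cells, or how many founders the line has. Total RNA of the whole distal colon was sequenced, so fewer cells of a type and less RNA per cell cannot be told apart.

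Ligands of this superfamily are secreted dimers that bring a type I and a type II receptor kinase together. BMP receptors pass the signal to Smad1, Smad5 and Smad9, and activin and TGF-β receptors pass it to Smad2 and Smad3, all of which enter the nucleus with Smad4. Smad6 and Smad7 block the pathway and are themselves among its targets, as are the Id genes. In the colon, BMP activity is known to be high toward the lumen, where epithelial cells differentiate, and to be held low at the crypt base by antagonists such as gremlin 1 from the stroma and muscle layer.

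Library totals ran from 9229861 to 16935961 counts, and 17522 genes passed the filter on low counts. Levels below are CPM, read counts scaled to a common library size. Fold changes are log2 values ± SE from 1 edgeR quasi-likelihood fit of all 8 libraries, and p-values are Benjamini-Hochberg adjusted over all genes with 0.05 as the threshold. No label says how the mice were housed or sampled, so these p-values measure only the spread between the samples of a group. Transcripts of Y-linked genes divided the mice by sex unevenly: the second WT untreated mouse and both ΔNFκB untreated mice were male, and the other 5 were female. The DSS comparison in ΔNFκB mice therefore also compares females with males, and sex and DSS cannot be told apart within it. Both DSS groups were female. The first ΔNFκB untreated library stood apart in its T and NK cell markers, with a summed 31.6 CPM against 3.99 CPM in the second.

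Of the 65 genes, 53 were tested. Bmp10, Gdf1, Gdf2, Inhbc and Inhbe had 0 counts in every library. Bmp15, Gdf3, Gdf5, Gdf6, Gdf7, Gdf9 and Nog, which encodes the BMP antagonist noggin, had too few counts, with at most 11 in a library and at most 0.878 CPM. Nog read 0.319 and 0.402 CPM in untreated and 0.483 and 0.275 CPM in DSS-treated WT mice, 0.316 and 0 CPM in untreated ΔNFκB mice, and 0 and 0.103 CPM after DSS. A count of 0 allows up to 3 counts in a library, or 0.201 to 0.309 CPM, which covers counting error only. Another 3 symbols carry the family's name but not its function: Bmp1 is a procollagen protease, Bmp2k a kinase and Fstl1 a secreted stromal glycoprotein. Among the tested genes, Bmp5 and Fstl3 share 46.7% and 47.3% of their exon bases with overlapping genes, so their counts are uncertain, as are those of the near-identical pair Bmp8a and Bmp8b.

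In untreated WT colon the level per kilobase of exon was highest for Id1, at 149 ± 59.0 CPM per kb (SD, n = 2), followed by Smad4 at 46.5 ± 6.01 CPM per kb. The type I receptor gene Bmpr1a (26.0 ± 0.524 CPM per kb) and its ligand Bmp2 (25.5 ± 0.700) came next and differed by less than their spread. Grem1, encoding gremlin 1, ranked 7 at 18.4 ± 7.86 CPM per kb. Activin and inhibin subunits were low: Inhba, the βA subunit, was at 0.668 ± 0.574 CPM per kb, and Inhbb, the βB subunit, at 0.0582 ± 0.0292. Tgfb1 was at 1.25 ± 0.0202 CPM per kb and Tgfb3 at 3.01 ± 1.39. After DSS Grem1 had rank 3 in WT colon, at 62.7 ± 13.8 CPM per kb, and rank 18 in ΔNFκB colon, at 5.76 ± 1.75. Id1 stood first in all 4 groups.

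The proximal promoters of 4 genes that moved together or against each other in the comparisons below are shown: the antagonist genes Grem1 and Chrd and the activin gene Inhba, which were high in WT colon after DSS, and the Id gene Id3, which was low there. Each is the RefSeq window of 250 bases before the start site on GRCm38.p6, written 5′ to 3′ on the gene's strand. They lie at chr2:113758649-113758898 (minus strand) for Grem1, chr16:20732877-20733126 (plus) for Chrd, chr13:16011601-16011850 (plus) for Inhba and chr4:136143572-136143821 (plus) for Id3. In the annotation used for exon lengths Id3 starts earlier, at chr4:136143497, so its window lies inside that annotated gene. Capitals mark GGCGCC, a core sequence bound by BMP-activated Smads.
Grem1: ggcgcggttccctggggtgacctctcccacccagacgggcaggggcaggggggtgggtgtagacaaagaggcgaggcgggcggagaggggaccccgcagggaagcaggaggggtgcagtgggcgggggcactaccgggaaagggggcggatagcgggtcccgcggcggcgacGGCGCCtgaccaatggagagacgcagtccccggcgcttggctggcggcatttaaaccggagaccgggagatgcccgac
Chrd: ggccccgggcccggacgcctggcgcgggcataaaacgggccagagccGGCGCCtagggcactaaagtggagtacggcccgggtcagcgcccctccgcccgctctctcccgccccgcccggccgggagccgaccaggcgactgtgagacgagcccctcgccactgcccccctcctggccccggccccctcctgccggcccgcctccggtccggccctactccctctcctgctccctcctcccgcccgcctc
Inhba: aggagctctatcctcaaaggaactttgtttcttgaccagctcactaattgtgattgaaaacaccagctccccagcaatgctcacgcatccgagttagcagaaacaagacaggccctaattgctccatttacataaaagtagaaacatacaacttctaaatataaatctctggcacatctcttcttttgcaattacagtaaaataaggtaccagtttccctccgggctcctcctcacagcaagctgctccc
Id3: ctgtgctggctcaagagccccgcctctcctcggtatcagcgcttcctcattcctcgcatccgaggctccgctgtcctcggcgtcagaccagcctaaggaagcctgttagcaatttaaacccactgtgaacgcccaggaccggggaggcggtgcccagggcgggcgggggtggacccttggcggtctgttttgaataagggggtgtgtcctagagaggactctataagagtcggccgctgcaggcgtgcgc
GGCGCC, which reads the same on both strands, began 78 bases before the start of Grem1 and 203 bases before that of Chrd, and did not occur in these windows of Inhba or Id3. The table held 53 windows of 45 of the signalling genes. GGCGCC was found in 12 of these 53 windows, each of another gene, or 22.6%, and in 9.59% of all promoter windows of this length. The windows were not matched for base composition, and GGCGCC holds only G and C, so these shares do not show an excess of Smad sites. Besides Grem1 and Chrd the genes with a match were Bmp2k, Bmpr1a, Bmpr2, Gdf1, Id2, Id4, Nbl1, Smad5, Smad9 and Tgfbr1. The palindrome GTCTAGAC, also known as a Smad site, was in 0 of the 53 and in 0.167% of all windows. A match describes the letters only, and no binding was measured here.

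Without DSS, 0 of the 53 tested genes differed between ΔNFκB and WT mice, where 0.388% of all tested genes did (0.0399% higher and 0.348% lower). Their median log2 difference was 0.12, against 0.03 for all genes. At an unadjusted p under 0.05 there were 6 genes: Acvr2b, Bmp2k, Bmp3, Bmpr1b, Id2 and Nbl1. DESeq2 called 1 gene, Bmp3, a BMP family ligand gene, at log2 0.82 (adjusted p = 0.0348), and limma-voom called 0. Bmp3 read 43.0 and 45.7 CPM in the WT and 65.3 and 93.9 CPM in the ΔNFκB mice, without overlap (edgeR log2 0.84 ± 0.21, adjusted p = 0.15). Between the males alone the comparison also gave 0 calls.

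In WT mice DSS raised activin subunits, TGF-β1 and several BMP antagonists, and lowered other antagonists, Id genes and inhibitory Smads. Of the 53 genes 14 rose and 13 fell, where 36% of all tested genes were called, 17.2% as higher and 18.8% as lower. The median log2 change of the 53 was 0.16, against 0.00 for all genes. Leaving out the second WT DSS mouse left 15 of the 27 calls, and the females alone (without the second WT untreated mouse) gave 19 calls, 10 higher and 9 lower.

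All 3 tested activin and inhibin genes rose. Inhba read 6.87 and 1.68 CPM in the untreated WT mice and 26.7 and 52.7 CPM after DSS (log2 3.24 ± 0.59, adjusted p = 0.00464). Inhbb went from 0.160 and 0.335 CPM to 3.86 and 8.97 CPM (log2 4.61 ± 0.71, adjusted p = 0.00226). Both DSS mice lay well above both untreated mice for either gene, and the second DSS mouse was the higher for both. Inha, the inhibin α subunit, also rose (log2 1.91, adjusted p = 0.0322) from under 0.4 CPM and was not called when any 1 of the 8 libraries was left out.

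Among the 9 tested antagonists, 5 rose and 2 fell. Chrdl2, encoding a chordin-like BMP binder, read 0.878 and 1.34 CPM untreated and 22.4 and 29.5 CPM after DSS (log2 4.52 ± 0.43, adjusted p = 0.000303). Grem1 went from 99.2 and 53.1 CPM to 219 and 300.5 CPM (log2 1.77 ± 0.31, adjusted p = 0.00386). Chrd, encoding chordin, went from 2.87 and 4.83 CPM to 13.4 and 23.8 CPM (log2 2.26 ± 0.34). The lowest treated mouse was above the highest untreated mouse by more than the untreated mice differed from each other for all 3. Bmper, which encodes an extracellular BMP modulator, rose from 0.479 and 0.805 CPM to 2.70 and 6.04 CPM (log2 2.73 ± 0.48). Fst, encoding the activin antagonist follistatin, read 1.04 and 1.07 CPM untreated and 2.03 and 9.98 CPM after DSS. Its log2 change of 2.50 (adjusted p = 0.0386) came to 0.93 without the second DSS mouse and was then not called (adjusted p = 0.405). Chrdl1, encoding another chordin-like BMP binder, fell from 32.7 and 19.6 CPM to 10.5 and 9.52 CPM (log2 -1.38 ± 0.30, adjusted p = 0.00903), and lost its call without the second DSS mouse (log2 -1.31, adjusted p = 0.06).

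Ligand genes otherwise moved one by one. Tgfb1 rose from 6.23 and 6.37 CPM to 29.2 and 22.0 CPM (log2 2.02 ± 0.32, adjusted p = 0.00253). Tgfb2 (6.71 and 4.90 CPM untreated, 4.83 and 5.13 CPM after DSS) and Tgfb3 (13.5 and 6.84, then 6.28 and 7.51 CPM) did not pass. Of the TGF-β isoforms, only Tgfb1 therefore had a call in WT mice. Bmp7, a ligand of the BMP5 to BMP8 subfamily, rose from 3.35 and 0.939 CPM to 9.85 and 18.0 CPM (log2 2.72 ± 0.53, adjusted p = 0.00615). Bmp2 fell from 92.5 and 88.9 CPM to 35.4 and 55.0 CPM (log2 -1.002 ± 0.21, adjusted p = 0.00819). Bmp4 spread too widely for a call, at 16.2 and 4.56 CPM untreated and 10.3 and 17.6 CPM after DSS. Gdf10 and Gdf15 fell, at log2 -1.20 (adjusted p = 0.0415) and -1.40 (adjusted p = 0.0351). Gdf15, a stress-induced ligand that signals outside the family's usual receptors, read 2.64 and 2.62 CPM untreated and 1.06 and 0.916 CPM after DSS. The treated values rest on 11 and 10 counts. Gdf15 was not called by DESeq2 (adjusted p = 0.106) or in the edgeR fit with a sex term (adjusted p = 0.0906). Without the first WT DSS mouse Gdf10 moved by -0.78 and was not called, and without the second it moved by -1.83.

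Receptor changes were smaller, apart from Acvr1c, the gene of the activin receptor ALK7, which fell from 12.1 and 18.5 CPM to 2.12 and 3.11 CPM (log2 -2.54 ± 0.33, adjusted p = 0.00122). Bmpr1a fell from 163 and 167 CPM to 91.9 and 111 CPM (log2 -0.70 ± 0.13, adjusted p = 0.0054). Acvr2a, an activin type II receptor gene, fell from 52.7 and 61.4 CPM to 38.4 and 35.2 CPM (log2 -0.63 ± 0.12). The 3 receptor genes that rose were Tgfbr3 (betaglycan, log2 0.90), Acvrl1 (the endothelial receptor ALK1, 1.04) and Bmpr2 (174 and 139, then 194 and 230 CPM, log2 0.44, adjusted p = 0.0492). Without the second WT DSS mouse none of these 3 was called, and Tgfbr3 came to 0.49. Acvrl1 came to 0.64 without the second WT untreated mouse and to 1.67 without the first. Acvr1, the gene of a BMP type I receptor, read 19.96 and 17.9 CPM and then 18.4 and 18.2 CPM, and Tgfbr2 read 122 and 124 CPM and then 144 and 166 CPM. Neither passed.

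Inside the cell, Smad4 rose from 157 and 188 CPM to 250 and 298 CPM (log2 0.67 ± 0.15, adjusted p = 0.0111), while 5 receptor Smads did not pass. Smad3 read 56.2 and 67.9 CPM untreated and 75.3 and 65.7 CPM after DSS. The target genes went down. Smad7 fell from 64.2 and 71.3 CPM to 49.4 and 33.8 CPM (log2 -0.70 ± 0.22, adjusted p = 0.0387) and Smad6 from 11.7 and 8.18 CPM to 6.28 and 3.75 CPM (log2 -0.99 ± 0.30, adjusted p = 0.0349). Id3 fell from 27.1 and 23.7 CPM to 18.4 and 14.4 CPM (log2 -0.63 ± 0.17, adjusted p = 0.023) and Id4 from 29.1 and 15.2 CPM to 6.37 and 4.12 CPM (log2 -2.08 ± 0.39, adjusted p = 0.00497). Id1 fell from 125 and 222 CPM to 116 and 66.3 CPM (log2 -0.93 ± 0.31, adjusted p = 0.0451), and between the females alone its change was -0.43 with no call. It was -0.59, not called, without the second WT DSS mouse, and -1.40 without the first. Without the second WT DSS mouse Smad4, Smad6 and Id3 also lost their calls, and Smad7 came to -0.46 with none. Id2 (14.8 and 17.1, then 12.3 and 13.6 CPM) did not pass.

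**Figure D1:**
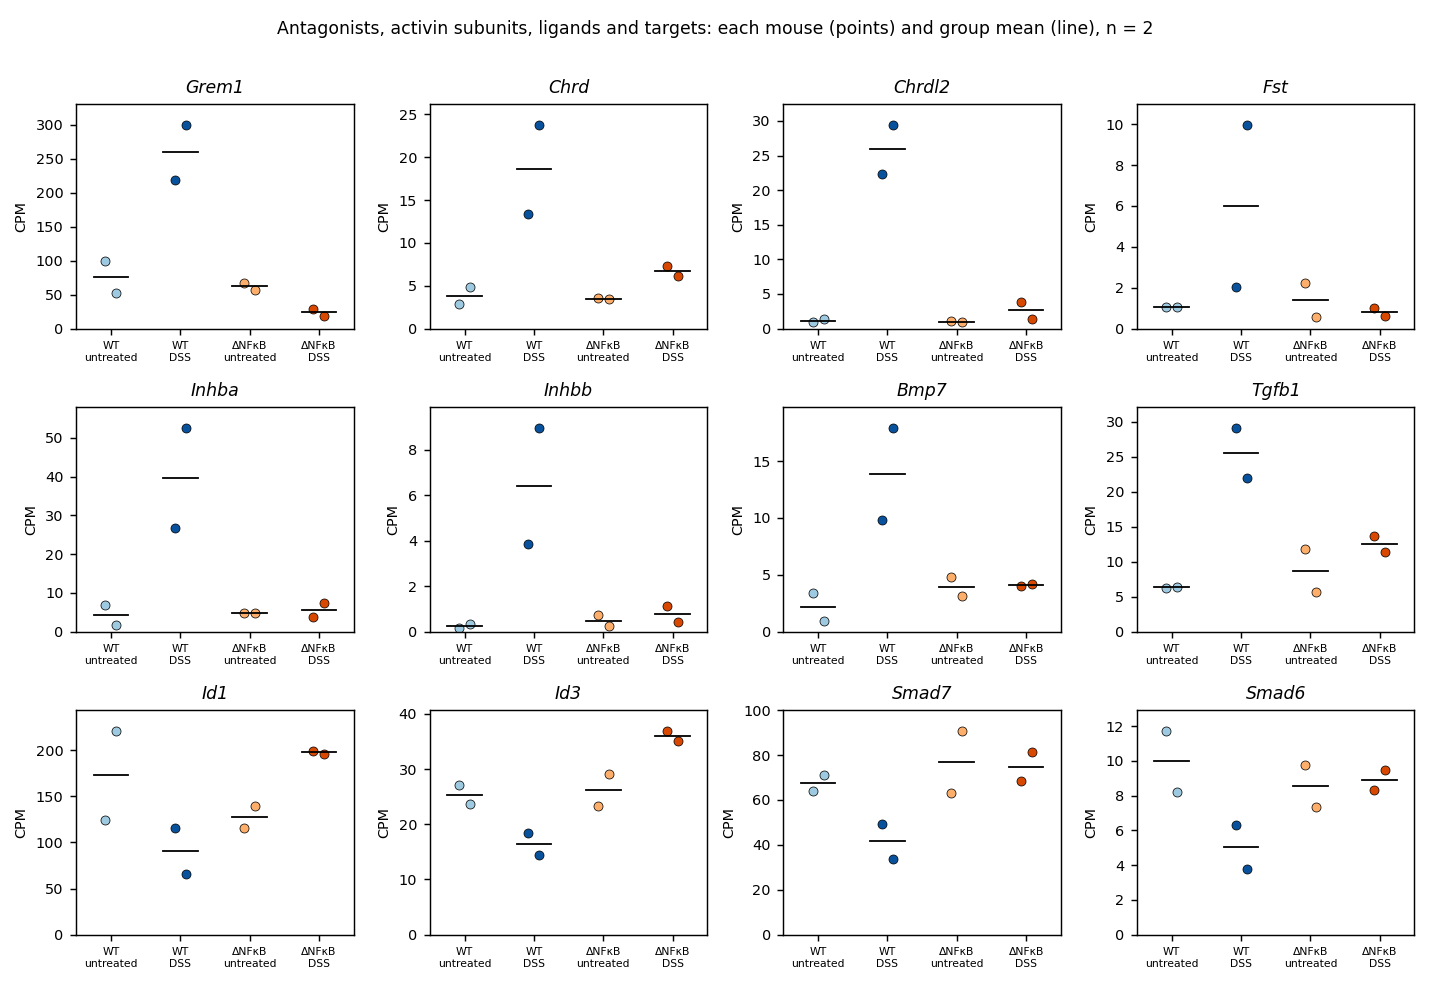
CPM on linear axes from 0 for 12 genes (antagonists, activin subunits, Bmp7, Tgfb1, Id genes and inhibitory Smads), 1 point per mouse in the 4 groups of 2, with a line at the group mean. The 2 WT DSS mice stand above the other groups for Grem1 (219 and 300.5 CPM), Inhba (26.7 and 52.7 CPM) and Chrdl2 (22.4 and 29.5 CPM), and below the ΔNFκB DSS mice for Id3 (18.4 and 14.4 against 37.0 and 35.0 CPM).

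In ΔNFκB mice DSS was followed almost entirely by falls. Of the 53 genes 1 rose and 21 fell, where 35.4% of all tested genes were called, 16.2% as higher and 19.2% as lower. The median log2 change was -0.58, against -0.04 for all genes. The only one that rose was Smad4, from 146 and 178 CPM to 235 and 237 CPM (log2 0.54 ± 0.15, adjusted p = 0.0242), as it did in WT mice. Untreated ΔNFκB mice were male and treated ones female. With a sex term, whose estimate rests on the WT untreated pair, 21 genes were called, and calls of Acvr1, Acvr1c, Acvr2a, Bmpr1b, Fstl3, Id2 and Tgfbr2 were lost. Leaving out the first ΔNFκB untreated mouse gave 14 calls, the first ΔNFκB DSS mouse 14, and the second 12.

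The lowest adjusted p was that of Bmp3, which went from 65.3 and 93.9 CPM to 7.68 and 6.08 CPM (log2 -3.53 ± 0.24, adjusted p = 0.000111). Bmp2 fell from 73.0 and 94.1 CPM to 31.3 and 36.7 CPM (log2 -1.30 ± 0.21, adjusted p = 0.00265), as in WT mice. Bmp4 (11.2 and 8.05, then 8.30 and 5.57 CPM) and Bmp7 (4.81 and 3.09, then 4.00 and 4.23 CPM) did not pass. Tgfb2 fell from 8.28 and 7.73 CPM to 1.13 and 1.55 CPM (log2 -2.57 ± 0.29, adjusted p = 0.000542) and Tgfb3 from 12.8 and 9.19 CPM to 2.25 and 1.44 CPM (log2 -2.56 ± 0.40, adjusted p = 0.0022). Tgfb1 read 11.8 and 5.69 CPM untreated and 13.7 and 11.4 CPM after DSS and was not called. Gdf10 fell from 4.10 and 6.43 CPM to 0.512 and 0.721 CPM (log2 -3.07 ± 0.47), and Gdf15 (3.00 and 3.82, then 1.33 and 2.99 CPM) did not pass.

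None of the 3 activin and inhibin genes passed. Inhba read 4.89 and 4.72 CPM untreated and 3.79 and 7.42 CPM after DSS (log2 0.22 ± 0.62, adjusted p = 0.808), and Inhbb 0.710 and 0.244 CPM and then 1.13 and 0.412 CPM. The untreated and treated ranges of both genes overlapped. Of the 9 antagonists 5 fell and 0 rose. Nbl1, encoding the BMP antagonist DAN, went from 32.7 CPM in both mice to 6.25 and 7.83 CPM (log2 -2.21 ± 0.17, adjusted p = 0.000148). Chrdl1 went from 30.8 and 30.2 CPM to 2.15 and 4.23 CPM (log2 -3.25 ± 0.34, adjusted p = 0.000417). Grem1 fell from 67.4 and 56.9 CPM to 29.0 and 18.8 CPM (log2 -1.38 ± 0.32, adjusted p = 0.0122), the opposite of its rise in WT mice. Fstl3 fell by 1.41 on the log2 scale. Chrd (3.55 and 3.42, then 7.27 and 6.08 CPM, adjusted p = 0.0692) and Fst (2.21 and 0.569, then 1.02 and 0.618 CPM) did not pass, nor did Chrdl2 (1.104 and 0.895, then 3.89 and 1.44 CPM, adjusted p = 0.0526).

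Among receptors, Tgfbr3 fell from 54.3 and 53.1 CPM to 15.2 and 16.3 CPM (log2 -1.77 ± 0.23, adjusted p = 0.000976). Acvr1 (20.9 and 20.8, then 15.2 CPM in both) and Tgfbr2 (107 and 122, then 92.8 and 85.5 CPM) fell by less, at log2 -0.46 and -0.36. Acvr2a fell by 0.46 and Acvr1c by 1.13, the latter by 0.74 without the first untreated mouse. Bmpr1b was also called lower (adjusted p = 0.0496), from 4.42 CPM in the first untreated mouse and 0.732 CPM in the second. Bmpr1a (147 and 146, then 113 and 135 CPM) and Bmpr2 (180 and 163, then 138 and 156 CPM) did not pass. Smad5 fell from 95.6 and 97.5 CPM to 68.1 and 60.4 CPM (log2 -0.59 ± 0.11, adjusted p = 0.00417). Id4 fell from 24.2 and 22.5 CPM to 6.45 and 3.40 CPM (log2 -2.24 ± 0.39) and Id2 from 21.8 and 20.3 CPM to 12.2 and 12.6 CPM (log2 -0.77 ± 0.15). Id1 read 116 and 139 CPM untreated and 199 and 197 CPM after DSS, and Id3 23.3 and 29.0 CPM and then 37.0 and 35.0 CPM. Both lay higher in the treated mice without overlap but did not pass (adjusted p = 0.138 and 0.0638). Smad6 (9.78 and 7.32, then 8.30 and 9.48 CPM), Smad7 (62.9 and 91.0, then 68.3 and 81.4 CPM) and Smad3 (66.6 and 67.3, then 53.7 and 60.6 CPM) did not pass. Of the genes with another function, Bmp1 and Fstl1 fell, by 1.33 and 1.58 on the log2 scale.

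After DSS the ΔNFκB mice were lower than WT mice for 8 of 9 tested antagonists, all 3 TGF-β genes, all 3 activin and inhibin genes and the TGF-β receptors, for 3 of 8 BMP and 1 of 3 GDF ligand genes, and higher for Id1, Id3, Smad7 and Acvr1c. Of the 53 genes 25 were lower and 4 higher, where 20% of all tested genes were called, 11.7% as lower and 8.32% as higher. The median log2 difference was -0.81, against 0.03 for all genes, and 43 of the 53 had a negative difference, as 47.8% of all genes did. All 4 mice compared were female. Leaving out 1 mouse changed the count: without the second WT DSS mouse 9 genes were called, without the first ΔNFκB DSS mouse 12, and without the second 8. Bmp3, Chrdl2, Grem1, Id3, Nbl1, Tgfb2 and Tgfbr3 were called with every library left out in turn and under every other setting tried, in 1 direction throughout. The other genes called, among them Inha, Inhba, Inhbb, Tgfb1, Tgfb3, Tgfbr1, Id1, Smad7 and Acvr1c, lost the call under at least 1 setting.

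**Figure D2:**
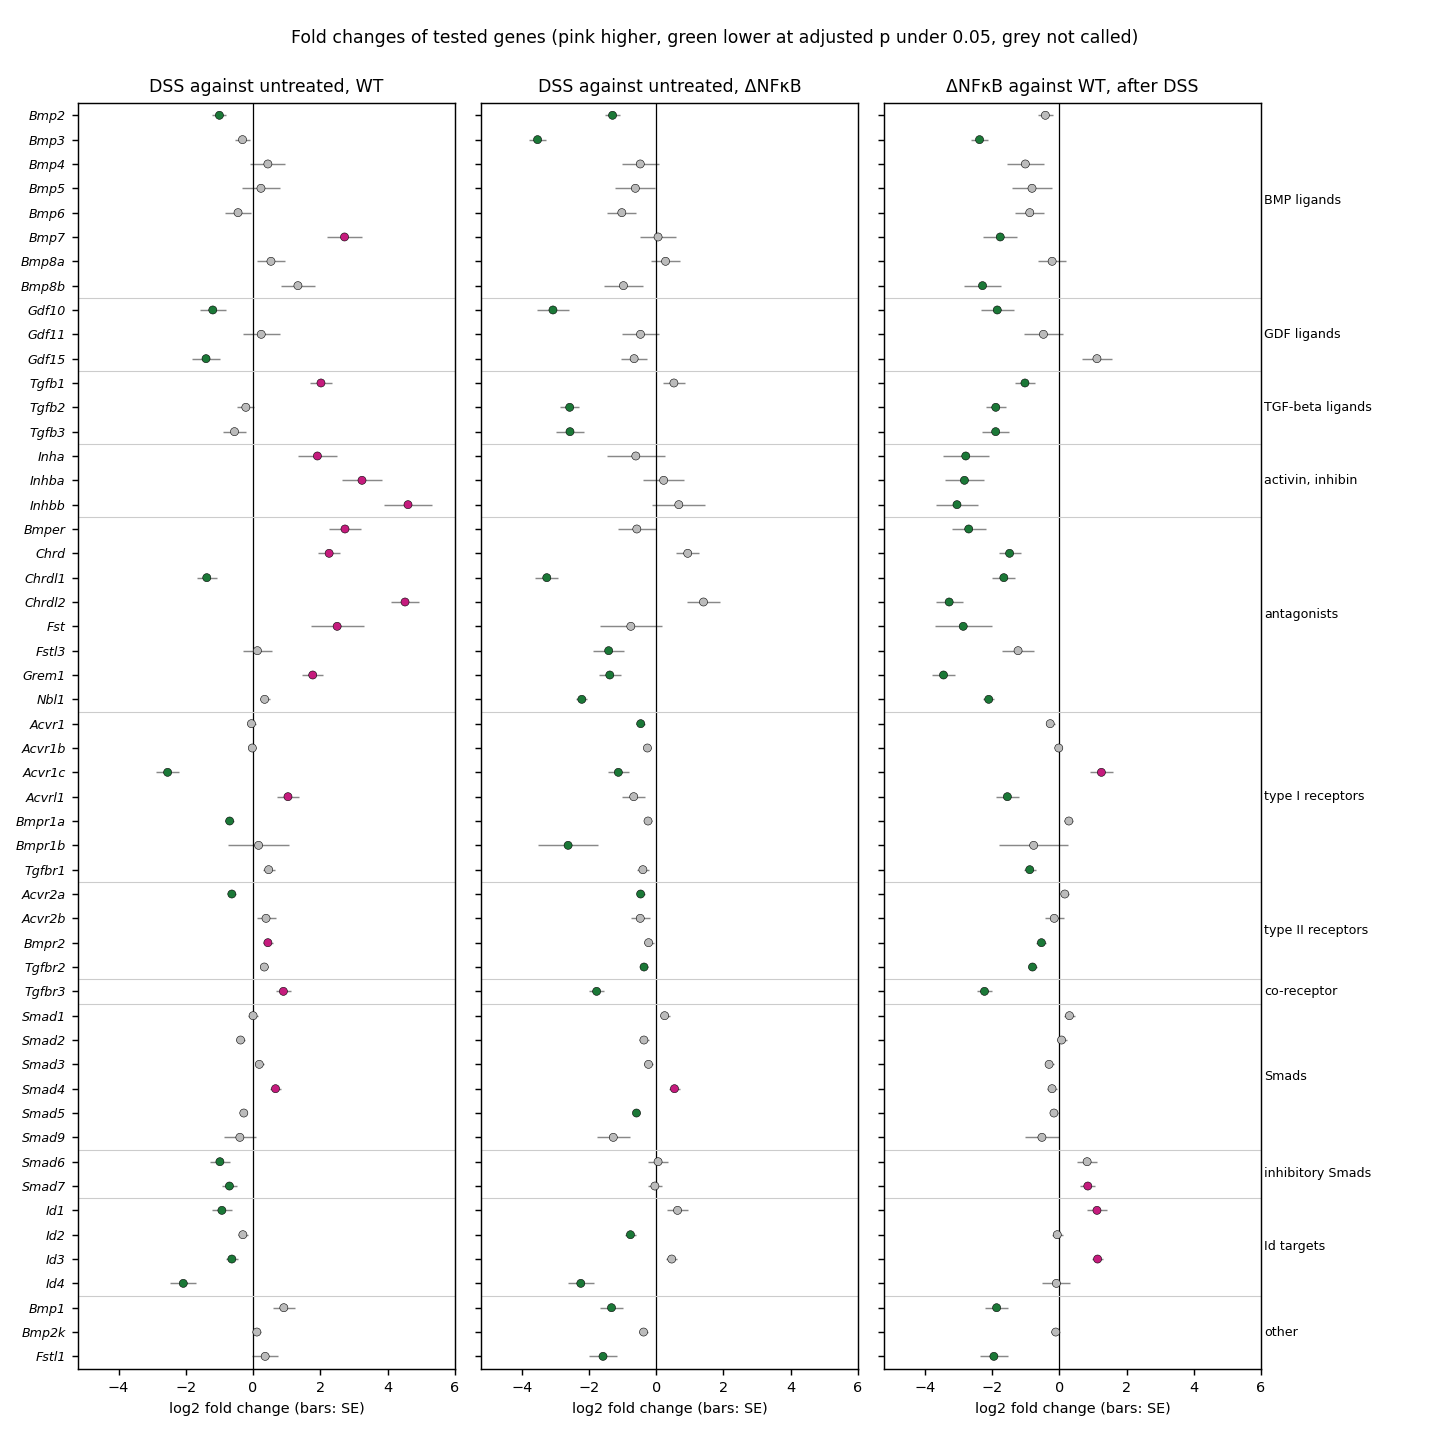
Log2 fold changes (points) with their SE (bars) for tested genes, grouped by role and coloured by call, in 3 comparisons: DSS in WT mice, DSS in ΔNFκB mice, and ΔNFκB against WT mice after DSS. For Grem1 the values are 1.77, -1.38 and -3.44, and Id1 and Id3 run the other way in the last comparison (1.12 and 1.14).

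Antagonists made up the most calls of any role, with 8 of 9 tested genes lower in ΔNFκB mice and Fstl3 not called. With the treated levels given above, Grem1 was at 219 and 300.5 CPM in WT and 29.0 and 18.8 CPM in ΔNFκB mice (log2 -3.44 ± 0.34, adjusted p = 0.0019). Chrdl2 differed by -3.28 ± 0.40 (adjusted p = 0.00302) and Nbl1 by -2.10 ± 0.17 (adjusted p = 0.00108), with 27.5 and 32.9 CPM of Nbl1 in WT mice. Chrdl1 differed by -1.65 ± 0.35, Bmper by -2.69 ± 0.51, Chrd by -1.48 ± 0.33 and Fst by -2.86 ± 0.85. Chrdl1 had fallen in both genotypes and lay lower still in the ΔNFκB mice. The Fst value came to -1.29 without the second WT DSS mouse.

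All 3 activin and inhibin genes were lower. Inhba differed by -2.82 ± 0.59 (adjusted p = 0.0151) and Inhbb by -3.04 ± 0.63 (adjusted p = 0.0152), with no overlap between the WT and ΔNFκB mice. Without the second WT DSS mouse Inhba came to -2.24 and Inhbb to -2.30. Inha had 3 counts in the 2 ΔNFκB DSS libraries together. The ratio of WT to ΔNFκB DSS mice was 7.32, with an exact 95% counting interval of 2.22 to 38.0. All 3 TGF-β genes were also lower. Tgfb2 differed by -1.89 ± 0.29 (adjusted p = 0.00557), Tgfb3 by -1.89 ± 0.41 (adjusted p = 0.0176) and Tgfb1 by -1.02 ± 0.31 (adjusted p = 0.0498). In the edgeR fit with a sex term Tgfb1 was not called (adjusted p = 0.0551), and limma-voom did not call Tgfb3 (adjusted p = 0.0514). Tgfb1 came to -0.79 without the first WT DSS mouse and to -1.20 without the second. Tgfb2 and Tgfb3 had fallen with DSS in ΔNFκB mice, and Tgfb1 had risen in WT mice.

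Of the BMP ligands, Bmp3 differed by -2.37 ± 0.24 (adjusted p = 0.00216), with 30.0 and 41.3 CPM in WT mice. Bmp7 differed by -1.76 ± 0.51 (adjusted p = 0.0441) and Bmp8b, whose reads can be split with Bmp8a, by -2.28 ± 0.56. Bmp2 (log2 -0.41, adjusted p = 0.202) and Bmp4 (-1.01, adjusted p = 0.22) did not pass. Gdf10 was lower by -1.85 ± 0.50, or -1.21 without the second WT DSS mouse, and Gdf15 did not pass (adjusted p = 0.111). Among the receptors, Tgfbr3 differed by -2.22 ± 0.23 (adjusted p = 0.00219), with 55.7 and 91.3 CPM in WT mice. Tgfbr2 differed by -0.80 ± 0.12 (adjusted p = 0.00516) and Tgfbr1 by -0.88 ± 0.18, so that both signalling receptors of TGF-β and its co-receptor were lower. Without the second WT DSS mouse Tgfbr1 came to -0.55. Acvrl1 (-1.54 ± 0.33) and Bmpr2 (-0.53 ± 0.15) were lower too, and Acvr1 (adjusted p = 0.192) and Bmpr1a (adjusted p = 0.161) did not pass.

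Genes induced by the pathway lay on the other side. Id3 was higher in ΔNFκB than in WT mice after DSS by 1.14 ± 0.17 (adjusted p = 0.00538) and Id1 by 1.12 ± 0.31 (adjusted p = 0.0375). Smad7 was higher by 0.85 ± 0.22 (adjusted p = 0.0326). Without the second WT DSS mouse Id1 came to 0.78 and Smad7 to 0.61. Smad6 pointed the same way without passing (0.83 ± 0.31, adjusted p = 0.0924), and Id2 and Id4 did not pass (-0.06 and -0.09). Acvr1c, which had fallen in both genotypes, was higher by 1.25 ± 0.35 (adjusted p = 0.039). The limma-voom test did not call Acvr1c (adjusted p = 0.0969). Its difference came to 1.02 without the first WT DSS mouse and to 1.56 without the second. None of the 6 receptor and common Smads passed.

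**Figure D3:**
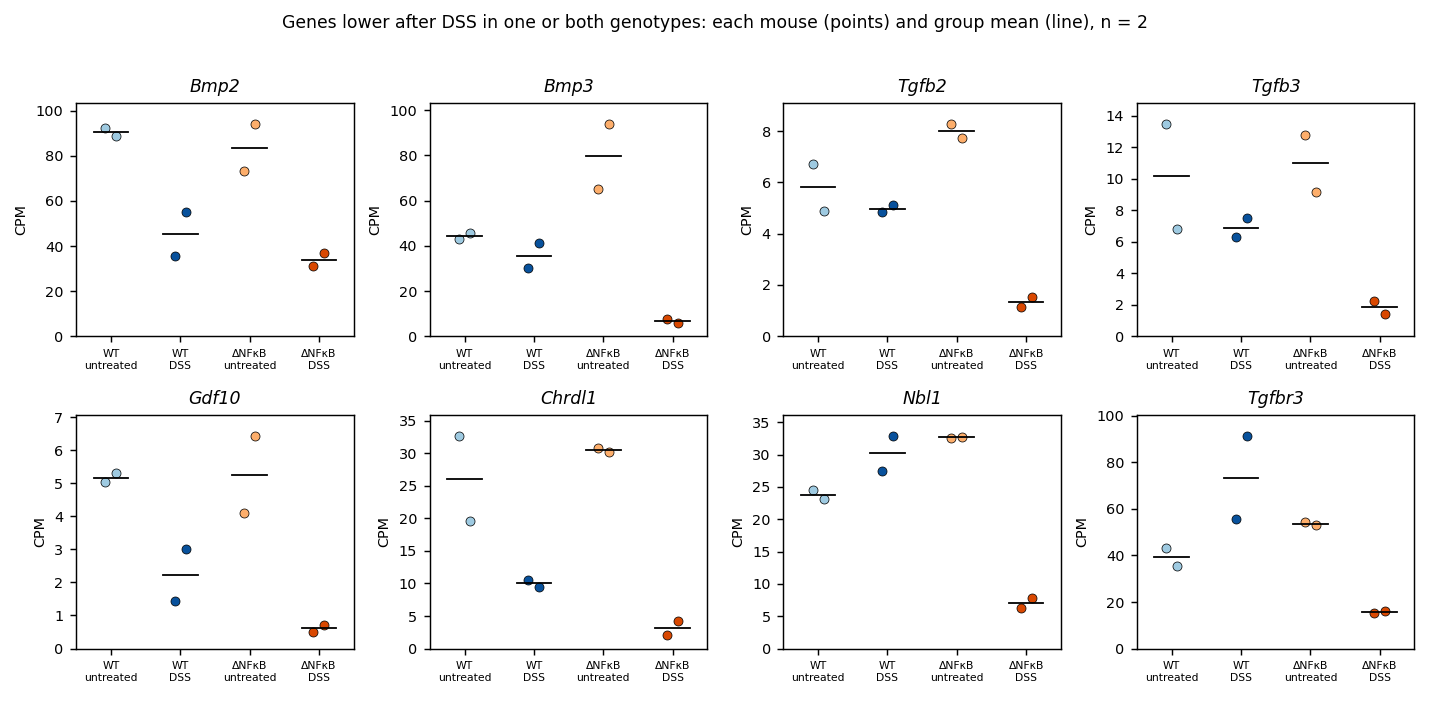
CPM on linear axes from 0 for 8 genes that fell with DSS in 1 or both genotypes, 1 point per mouse in the 4 groups of 2, with a line at the group mean. Bmp3 sits at 7.68 and 6.08 CPM in ΔNFκB mice after DSS against 30.0 and 41.3 CPM in WT mice, and Nbl1 at 6.25 and 7.83 CPM against 27.5 and 32.9 CPM.

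Several of the cell type marker lists moved with these differences. The summed CPM of 12 fibroblast and stroma markers was 2480 and 3639 in WT and 980 and 830 in ΔNFκB mice after DSS (2178 and 1443, and 1879 and 1868, untreated), and 10 of the 12 were called lower in ΔNFκB mice. Endothelial markers summed to 167 and 217 CPM against 49.9 and 36.6 CPM (9 of 10 lower), and enteric neuron and glia markers to 88.3 and 95.8 CPM against 17.8 and 13.5 CPM (9 of 11 lower). Goblet cell markers went the other way, with 3154 and 3968 CPM in WT and 10960 and 9067 CPM in ΔNFκB mice (9 of 9 higher). Neutrophil markers summed to 539 and 690 CPM against 201 and 151 CPM (9 of 10 lower). Of these sums Ly6g gave 200.8 and 245.5 CPM in WT and 121.5 and 70.9 CPM in ΔNFκB mice. In untreated WT mice Ly6g already read 96.7 and 229.9 CPM, where S100a8 read 0 and 0.0671 CPM. Smooth muscle markers were low in both, with 1840 and 1480 CPM in WT and 1255 and 1260 CPM in ΔNFκB mice after DSS, against 4588 to 8723 CPM untreated. Absorptive colonocyte markers summed to 2090 and 2129 CPM in WT and 3212 and 3071 CPM in ΔNFκB mice after DSS (4 higher and 2 lower of 11). Monocyte and macrophage markers summed to 443 and 402 CPM against 245 and 236 CPM (4 of 10 lower). T and NK cell markers summed to 28.8 and 35.0 CPM against 26.8 and 22.9 CPM, with 0 of 10 called. No fibroblast, endothelial, smooth muscle or colon epithelial marker was at 0. The part of these shifts in the differences of the signalling genes was not tested.

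**Figure D4:**
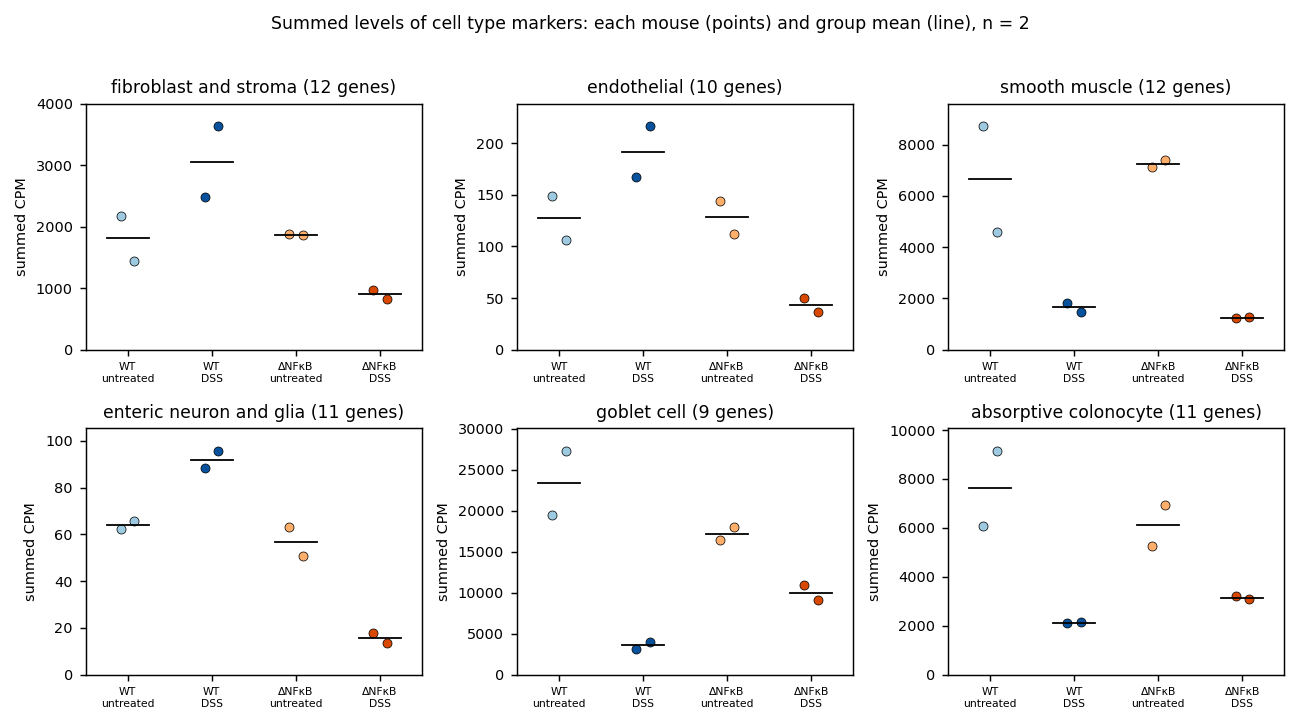
Summed CPM of 6 cell type marker lists on linear axes from 0, 1 point per mouse in the 4 groups of 2, with a line at the group mean. After DSS the fibroblast sum is 980 and 830 CPM in ΔNFκB mice and 2480 and 3639 CPM in WT mice, while the goblet cell sum is higher in ΔNFκB mice.

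The genes were also set against the marker sums of the same library. Per 1000 CPM of fibroblast markers, 9 of the 53 tested genes were lower without overlap, 32 were higher without overlap and 12 overlapped. Of all tested genes 3.94% were lower and 84% higher on this scale, since the sum itself was lower in ΔNFκB mice. Grem1 stood at 88.5 and 82.6 CPM per 1000 in WT and 29.6 and 22.6 in ΔNFκB mice after DSS, with 45.6 and 36.8 in untreated WT and 35.9 and 30.5 in untreated ΔNFκB mice. Inhba stood at 10.8 and 14.5 against 3.87 and 8.94, and Chrdl2 at 9.03 and 8.10 against 3.97 and 1.74. Tgfb1 (11.8 and 6.04 against 14.0 and 13.8) and Chrd (5.41 and 6.54 against 7.42 and 7.32) were not lower on this scale, and Nbl1 (11.1 and 9.03 against 6.38 and 9.43) and Tgfb2 (1.95 and 1.41 against 1.15 and 1.86) overlapped. Per 1000 CPM of endothelial markers, 5 of the 53 genes were lower without overlap, 36 were higher and 12 overlapped, where 2.18% of all tested genes were lower and 88.7% higher. Grem1 stood at 1314 and 1387 against 581 and 513 on that scale, and Inhba (159.6 and 243 against 76.0 and 203) overlapped, as did Tgfbr3 (334 and 422 against 304 and 445).

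**Figure D5:**
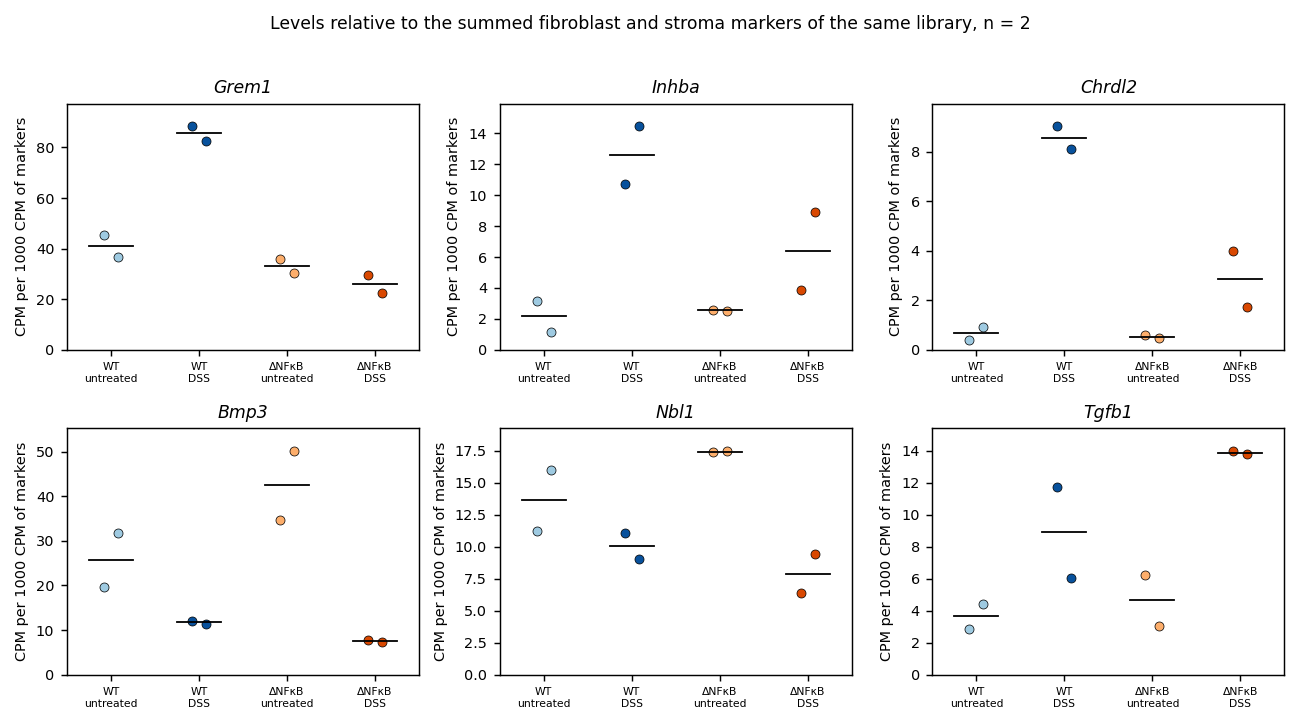
CPM of selected genes per 1000 CPM of 12 summed fibroblast and stroma markers in the same library, on linear axes from 0, 1 point per mouse with a line at the group mean. Grem1 stays lower in ΔNFκB (29.6 and 22.6) than in WT mice (88.5 and 82.6) after DSS, and Tgfb1 does not.

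The DSS responses of the 2 genotypes were compared directly as the ΔNFκB response minus the WT response. Sex was divided differently in the WT and ΔNFκB untreated groups, so it also enters this difference. A sex term rests on the WT untreated pair alone, and with it Inhbb lost its call (log2 -3.55). Of the 53 genes 17 had a lower and 2 a higher response in ΔNFκB mice, where 17.7% of all tested genes were called, 9.07% as lower and 8.63% as higher. The median was -0.86, against -0.05 for all genes. Grem1 and Tgfbr3 had risen in WT and fallen in ΔNFκB mice, and Smad4 had risen in both. Grem1 differed by -3.15 ± 0.45 (adjusted p = 0.00764), Bmp3 by -3.21 ± 0.32 (adjusted p = 0.00421) and Inhba by -3.02 ± 0.84 (adjusted p = 0.0431). The 2 higher responses were those of Id1 (1.56 ± 0.43, adjusted p = 0.0417) and Id3 (1.09 ± 0.24, adjusted p = 0.0223). Tgfb1 did not pass (-1.49 ± 0.44, adjusted p = 0.0523). Without the second WT DSS mouse or the first ΔNFκB untreated mouse 5 genes were called, without either ΔNFκB DSS mouse 7, without the second WT untreated mouse 11 and without the second ΔNFκB untreated mouse 12. Bmp3, Grem1, Nbl1, Tgfb2 and Tgfbr3 were called with every library left out in turn.

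Other genes of the pathway, 40 of them tested out of 54 in the table, were counted in the same way. DSS raised 13 and lowered 7 of the 40 in WT mice, where 17.2% of all tested genes rose and 18.8% fell. It raised 2 and lowered 15 in ΔNFκB mice, where 16.2% of all tested genes rose and 19.2% fell. After DSS 18 were lower and 0 higher in ΔNFκB than in WT mice (11.7% and 8.32% of all tested genes), and 12 had a lower response (9.07%). Latent TGF-β is held by latency proteins and freed by integrins. Itgb8, the integrin β8 subunit that activates latent TGF-β, read 6.23 and 5.10 CPM in untreated and 39.6 and 38.5 CPM in DSS-treated WT mice, and 9.23 and 7.97 CPM and then 2.36 and 1.34 CPM in ΔNFκB mice. The ΔNFκB difference after DSS was -4.39 on the log2 scale (adjusted p = 0.000415). Itgav, encoding its αv partner, rose in WT mice from 102 and 105 CPM to 213 and 256 CPM (log2 1.18) and differed by -0.90 after DSS. Ltbp3, a latent TGF-β binding protein gene, read 22.3 and 26.5 CPM in WT and 5.33 and 6.08 CPM in ΔNFκB mice after DSS (log2 -2.09, adjusted p = 0.00117). Ltbp4, of the same family, fell with DSS in both genotypes, by 1.18 in WT and 2.21 in ΔNFκB mice on the log2 scale. So did Wwp1, a ubiquitin ligase gene, by 1.03 and 0.64. Lrrc32, which encodes the latent TGF-β anchor GARP, read 11.97 and 16.8 CPM in WT and 1.02 and 2.06 CPM in ΔNFκB mice after DSS (log2 -3.21).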

How the data were processed

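Distal colon RNA of 8 mice was read in pairs (TruSeq Total RNA, HiSeqX), per the labels' protocols. Per the submitters' processing notes the tools were HISAT2 2.1, SAMtools 1.8, featureCounts and Subread 1.6.2 with mm10; what is not given in the sources used here is the annotation release, the strand setting and how multiply matching reads were treated. The authors' deposited tables hold expected counts (18.8% of nonzero values are not whole), not normalized, where whole counts had been assumed. They were rounded, and 115 symbols on more than 1 line were summed. Total counts ran from 9229861 to 16935961.

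The signalling genes and all gene lists were chosen with earlier results of these data known. One edgeR 4.0.16 quasi-likelihood fit of the 4 group means (R 4.3.3, filterByExpr, TMM, 4 residual degrees of freedom) tested 17522 genes, with Benjamini-Hochberg adjustment at 0.05. The SE was taken as |log2 fold change| over the root of F. With 2 mice per group the smallest exact permutation p is 0.333, so no such test was used. Level per kilobase uses the exon union of GENCODE M21 on GRCm38, in which all 55536 identifiers were found. A mouse was called male above 5 CPM of Y-linked transcripts. Values in every sample are given for up to 12 members with the smallest p per pairwise comparison, up to 8 in the difference of responses, and 24 fixed by name. Some genes so chosen are counted but not reported here. Of the other pathway genes the rule takes up to 3 by p per pairwise comparison. Reads are not independent molecules, so intervals and floors describe counting error alone.

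As alternatives, the counts were scaled by upper quartile or RLE factors, tested with DESeq2 1.42.0 and limma-voom (limma 3.58.1), left unfiltered, or filtered at 1 CPM in 2 libraries. Others were the table by Ensembl identifier, a table without 887 genes of antigen receptors, mitochondria and ribosomal RNA, only the groups compared, a replicate block, a sex term and each library left out in turn. A group left with 1 mouse is assumed to vary like the others. On simulated data with 200 changed genes the fit recovered 30% (ΔNFκB against WT after DSS) and 36% (DSS in ΔNFκB) at 2-fold and 76.5% and 73.5% at 4-fold. In the difference of responses it recovered 0% and 56.5%. Genes called without having been changed numbered 6 (ΔNFκB against WT after DSS) and 10 (DSS in ΔNFκB) at 2-fold. At 4-fold they numbered 13 and 6. The difference of responses had 1 such false call at 2-fold and 7 at 4-fold. DSS in WT, where 0 genes were changed, had 0 at either fold. These runs therefore do not show that the share of false calls stays under 0.05.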

Additional observations from a re-analysis of the deposited data

Results flagged for a closer look

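For 19 of the 53 tested genes the DSS response differed between genotypes in the interaction term of the edgeR fit. Values are the log2 response in ΔNFκB mice minus that in WT mice, with Benjamini-Hochberg adjusted p. Antagonists among them were Nbl1 at -2.56 (adjusted p = 0.00268), Grem1 at -3.15 (adjusted p = 0.00764), Chrdl2 at -3.11 (adjusted p = 0.0201), Chrdl1 at -1.88 (adjusted p = 0.0276) and Bmper at -3.31 (adjusted p = 0.0239). Ligand and subunit genes gave another 6: Bmp3 at -3.21 (adjusted p = 0.00421), Bmp7 at -2.66 (adjusted p = 0.0431), Tgfb2 at -2.36 (adjusted p = 0.00987), Tgfb3 at -2.01 (adjusted p = 0.0373), Inhba at -3.02 (adjusted p = 0.0431) and Inhbb at -3.93 (adjusted p = 0.0444). Receptor genes gave 3: Tgfbr3 at -2.67 (adjusted p = 0.00535), Tgfbr2 at -0.70 (adjusted p = 0.0293) and Acvrl1 at -1.71 (adjusted p = 0.0395). Among the symbols with another function were Bmp1 at -2.24 (adjusted p = 0.02) and Fstl1 at -1.94 (adjusted p = 0.0481). Only Id1 at 1.56 (adjusted p = 0.0417) and Id3 at 1.09 (adjusted p = 0.0223) had a higher response in ΔNFκB mice. The fibroblast, endothelial and goblet cell marker sums differed between the same groups, and their part in these values was not tested. Sex was divided differently in the WT and ΔNFκB untreated groups and so also enters these values. Bmp3, Grem1, Nbl1, Tgfb2 and Tgfbr3 kept this call with each of the 8 libraries left out in turn, and the other genes named here lost it without at least 1 library.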

How the results depend on the processing

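Counts of called genes moved most when 1 library was left out. They ran from 15 to 25 for DSS in WT mice (27 with all libraries), 12 to 22 for DSS in ΔNFκB mice (22), 8 to 27 for genotype after DSS (29), 5 to 22 for the difference of responses (19) and stayed at 0 for genotype without DSS. Under all other settings the 4 nonzero counts stayed within 1.5 times, at 19 to 28, 19 to 25, 25 to 30 and 16 to 25. For genotype without DSS, DESeq2 and no count filter gave 1 call each, that of Bmp3. A fit without 1 library has fewer samples. Inha had at most 16 counts in a library, so depth limits its values. Testing only the groups compared does not apply to the difference of responses and was not run there. The replicate block gave 24, 23, 25 and 16 calls. Replicate numbers did not pair the samples: the deviations of same-numbered libraries correlated at -0.126 to 0.244 over 6 pairs of groups. No value past the threshold changed sign under any setting. Of the 265 values of the 53 tested genes in the 5 comparisons, 71 changed sign under at least 1 setting, 0 of them past the threshold. Sign changes among the 133 values chosen by the naming rule, whose cause was not tested, follow as log2 values. With settings other than a left-out library, 14 alternative values changed sign. For DSS in WT mice these were Bmp4 -0.21 (sex term). For DSS in ΔNFκB mice these were Bmp7 -0.0024 (upper quartile factors), Bmp7 -1.77 (sex term), Inhba -1.81 (sex term), Smad6 -0.0029 (upper quartile factors), Smad6 -0.46 (sex term), Smad7 0.11 (sex term) and Smad3 0.043 (sex term). For genotype without DSS these were Bmp4 0.20 (limma-voom), Bmp4 1.08 (sex term), Grem1 0.23 (sex term), Id3 -0.0023 (no count filter), Smad6 0.064 (sex term) and Smad3 -0.0196 (sex term). With 1 library left out 27 of the 133 changed sign, given as lowest to highest value. For DSS in WT mice these were Acvr1 -0.096 to 0.058, Bmp4 -0.18 to 1.65, Tgfb2 -0.40 to 0.053 and Tgfb3 -0.94 to 0.041. For DSS in ΔNFκB mice these were Bmp7 -0.21 to 0.43, Fst -1.40 to 0.54, Inhba -0.31 to 0.64, Inhbb -0.20 to 1.63, Smad6 -0.12 to 0.30 and Smad7 -0.26 to 0.27. For genotype without DSS these were Bmp2 -0.34 to 0.028, Bmp4 -0.78 to 1.05, Bmpr2 -0.046 to 0.28, Chrd -0.50 to 0.25, Fst -0.90 to 1.03, Grem1 -0.70 to 0.20, Id1 -0.82 to 0.0037, Id3 -0.15 to 0.17, Inhba -0.54 to 1.49, Inhbb -0.078 to 1.496, Smad3 -0.047 to 0.23, Smad6 -0.48 to 0.037, Smad7 -0.13 to 0.40, Tgfb1 -0.17 to 0.87 and Tgfb3 -0.32 to 0.66. For genotype after DSS these were Id2 -0.12 to 0.021. For the difference of responses these were Bmp2 -0.56 to 0.066.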
